A study of Homo sapiens with 10 samples.

Results

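The 51 genes described here encode the heat shock proteins of the cytosol with their partner proteins and the CCT chaperonin, and they were taken by name from the 20263 genes of the table. They comprise 3 inducible HSP70 genes, 8 other HSP70 and HSP110 genes, 9 genes of the HSP90 system, 9 DNAJ genes, 6 BAG genes, 8 CCT subunits, 3 small heat shock protein genes, the 2 mitochondrial chaperonin genes, 2 heat shock transcription factors and the ubiquitin ligase gene STUB1. All 51 names had a row. The products of HSPA9, TRAP1, DNAJA3, HSPD1 and HSPE1 work in mitochondria and that of HSPA13 in the endoplasmic reticulum, so the set is not cytosolic throughout.

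RNA sequencing was done on the established human pancreatic cancer line PANC-1. Of the 10 libraries, 5 came from cells given 20 µM LY for 24 h and 5 from cells given DMSO. LY is lycorine, a plant alkaloid known to block protein synthesis on ribosomes, and the series title asks what it does to these cells. The control columns are named NC-1 to NC-5. They were taken as the DMSO group without tying a column to a sample, and all 5 columns per group were used although the series text gives 4. All samples come from 1 cell line, and separate cultures are not stated, so p-values measure only the spread between these libraries.

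Heat shock proteins bind unfolded stretches of other proteins and help them fold, refold or reach degradation. HSP70 proteins work in cycles driven by ATP, in which DNAJ proteins deliver the client. HSP110 proteins and most BAG proteins exchange the nucleotide, and HSP90 takes over many clients through adaptor proteins. The CCT chaperonin is a closed double ring of different subunits that folds actin and tubulin, and the factor HSF1 drives heat shock genes through repeats of short GAA and TTC units in their promoters.

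Levels are the authors' TPM, each transcript's share of its library after correction for length, with the library totals fixed and the read depth unknown. Differences are given as log2 fold changes of LY over DMSO on the log2(TPM + 1) scale, with the SE of a limma fit to the 11663 genes that reached 1 TPM in at least 5 libraries. A gene is called changed at a Benjamini-Hochberg adjusted p below 0.05 over all these genes, and 64.6% of them were called, with 39.8% higher and 24.9% lower in LY. The groups did not overlap for 49.4%. On this scale the median gene stood at 0.17, against 0.034 after median-ratio scaling and 0.051 after quantile normalization, so small positive values lie near the typical gene. Bulk RNA cannot tell fewer cells with a transcript from less transcript per cell.

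Library NC-2 stood apart, with 37.5% of its TPM on mitochondrially encoded genes, against 6.43% to 14.9% in LY and 12.2% to 14.1% in the other DMSO libraries. Its part in the results was tested only by leaving it out. Of 5 epithelial and PANC-1 markers, KRT8 (1182 to 1514 TPM in LY, 1069 to 1601 TPM in DMSO) did not pass the test. KRT18 was higher in LY (1010.0 ± 66.8 TPM, against 714 ± 70.2 TPM in DMSO, limma adjusted p = 0.00097). VIM was lower (3228 ± 308 TPM in LY, 4213 ± 201 TPM in DMSO, limma adjusted p = 0.0108), KRT19 was lower (21.0 ± 3.47 TPM in LY, 148 ± 16.6 TPM in DMSO, limma adjusted p = 1.48e-08), and KRT7 was near 0. Acinar markers (5 of 5) and endocrine markers (4 of 4) were listed at 0 throughout. Of 4 leukocyte markers 2 were at 0, and their summed level was 131 to 232 TPM in LY and 34.5 to 47.3 TPM in DMSO, nearly all from CD68. Endothelial markers summed to 2.74 to 3.32 TPM in LY and 0.099 to 0.535 TPM in DMSO, with PECAM1 at 0. Fibroblast markers summed to 0.298 to 0.601 TPM in LY and 2.60 to 3.85 TPM in DMSO, with DCN and LUM at 0. The part of these markers in the results was not tested.

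Promoter stretches are shown for 6 members that carry the same kind of letters and moved in different directions: HSPA1A, HSPA1B, HSPA8 and HSP90AA1 fell by at least 2-fold, whereas CHORDC1 and DNAJB6 rose. The sequences are RefSeq's on GRCh38.p14, read 5′ to 3′ on the gene's strand, and capitals mark GAA and TTC units in the heat shock arrangement. In the HSPA1A and HSPA1B lines the capitals are the 2-unit form GAANNTTC. In the other lines they are the 3-unit forms GAANNTTCNNGAA or TTCNNGAANNTTC, which overlap 3 times in CHORDC1. The HSPA8, HSP90AA1 and CHORDC1 lines hold bases that GENCODE release 29 annotates as UTR, and they are limited to 30 bases. The HSPA1A line covers chr6:31815393-31815463 (+), and the HSPA1B line chr6:31827588-31827734 (+). The HSPA8 line covers chr11:123062170-123062199 (-), the HSP90AA1 line chr14:102087111-102087140 (-), the CHORDC1 line chr11:90223083-90223112 (-) and the DNAJB6 line chr7:157336854-157336965 (+).
HSPA1A: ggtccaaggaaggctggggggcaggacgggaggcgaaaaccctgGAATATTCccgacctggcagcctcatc
HSPA1B: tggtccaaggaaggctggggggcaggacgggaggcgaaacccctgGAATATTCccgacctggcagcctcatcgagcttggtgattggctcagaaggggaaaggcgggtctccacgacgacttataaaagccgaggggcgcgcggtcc
HSPA8: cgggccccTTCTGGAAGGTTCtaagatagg
HSP90AA1: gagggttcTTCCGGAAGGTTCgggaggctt
CHORDC1: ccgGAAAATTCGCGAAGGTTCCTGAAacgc
DNAJB6: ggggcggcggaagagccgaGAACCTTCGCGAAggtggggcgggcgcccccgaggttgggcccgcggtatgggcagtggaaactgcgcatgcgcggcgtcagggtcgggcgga

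The inducible HSP70 transcripts HSPA1A and HSPA1B fell. HSPA1A, at 31815464 to 31817946 on chromosome 6 (hg38), encodes the HSP70 that cells make on heat or proteotoxic stress. Its levels were 10.2, 9.39, 9.66, 10.2 and 9.36 TPM in LY-1 to LY-5, against 101, 70.5, 85.1, 70.1 and 67.4 TPM in NC-1 to NC-5. All 5 LY libraries lay close together and far below the lowest DMSO library. The mean was 9.76 ± 0.413 TPM in LY and 78.9 ± 14.2 TPM in DMSO (SD, n = 5 each), which is 8.08-fold lower in LY, with a log2 fold change of -2.88 ± 0.12 (limma, adjusted p = 1.19e-08).

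HSPA1B lies beside it on chromosome 6 at 31827735 to 31830255 and encodes nearly the same protein. Its levels were 6.18, 7.04, 7.08, 7.31 and 6.75 TPM in LY, against 75.0, 45.7, 63.8, 53.5 and 53.3 TPM in DMSO. The groups did not overlap, and the log2 fold change was -2.89 ± 0.13 (limma, adjusted p = 1.21e-08). The 250 bases before their RefSeq starts match at 235 of 251 aligned positions, which describes the promoters rather than the reads. Their transcribed parts, which were not compared here, are known to be near identical, so the authors' counting could have moved reads between the genes. Their summed level avoids that split. It was 16.4, 16.4, 16.7, 17.5 and 16.1 TPM in LY, against 176, 116, 149, 124 and 121 TPM in DMSO. HSPA6, an HSP70 that is transcribed almost only under stress, stayed below 1 TPM everywhere, at 0.139 to 0.391 TPM in LY and 0.321 to 0.614 TPM in DMSO, and was not tested.

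HSPA8, the constitutive HSP70 (HSC70) of the cytosol on chromosome 11 at 123057489 to 123063230, was the most abundant of the 51 transcripts in DMSO and ranked 6 in LY. Its levels were 876, 834, 781, 734 and 717 TPM in LY, against 4027, 3816, 3915, 4014 and 3913 TPM in DMSO. Every LY library was far below every DMSO library. HSPA8 was 4.99-fold lower in LY, with a log2 fold change of -2.32 ± 0.10 (limma, adjusted p = 1.21e-08). In the table as a whole its rank by mean TPM was 165 in LY and 27 in DMSO.

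The HSP70 genes did not move as a block. HSPA9, which encodes the mitochondrial HSP70 mortalin, rose and took the top rank among the members. It stood at 1411, 1433, 1440.0, 1322 and 1212 TPM in LY, against 652, 694, 606, 635 and 747 TPM in DMSO, with no overlap and a log2 fold change of 1.03 ± 0.10 (limma, adjusted p = 3.17e-06). The level of HSPA8 over that of HSPA9 was therefore 0.542 to 0.621 in LY and 5.24 to 6.46 in DMSO. A ratio within a library does not change when the whole library is scaled by a common factor, though quantile normalization can change it.

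HSPA2, an HSP70 best known from male germ cells, was low. It stood at 0.312, 0.33, 0.552, 0.492 and 0.454 TPM in LY, against 5.32, 4.0, 5.51, 4.16 and 5.45 TPM in DMSO. No LY library reached 1 TPM, so HSPA2 passed the filter through the DMSO libraries alone, had to differ, and is given as values without its test. HSPA14, an HSP70 that sits at the ribosome, fell, at 28.8 ± 4.51 TPM in LY and 47.7 ± 7.71 TPM in DMSO (log2 fold change -0.71 ± 0.13).

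The HSP110 genes, whose products exchange the nucleotide of HSP70, differed among themselves. HSPA4 (APG-2) rose, with 307, 294, 366, 325 and 296 TPM in LY against 208, 192, 195, 198 and 212 TPM in DMSO (log2 fold change 0.65 ± 0.09, limma adjusted p = 4.9e-05). The groups did not overlap. HSPH1 (HSP105), a heat-inducible member of the same family, did not pass the test, with 109.5 to 130.0 TPM in LY and 109 to 124 TPM in DMSO. The 95% interval of its log2 fold change ran from -0.11 to 0.26. HSPA4L also missed the threshold (log2 fold change 0.24 ± 0.10, adjusted p = 0.0649 by limma), and HSPA13 rose to 22.4 ± 3.76 TPM in LY, against 13.2 ± 1.55 TPM in DMSO. In all, 3 of the 8 genes in this group rose (background 39.8%), 3 were called lower (background 24.9%), with HSPA2 among them, and 2 did not pass.

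**Figure D1:**
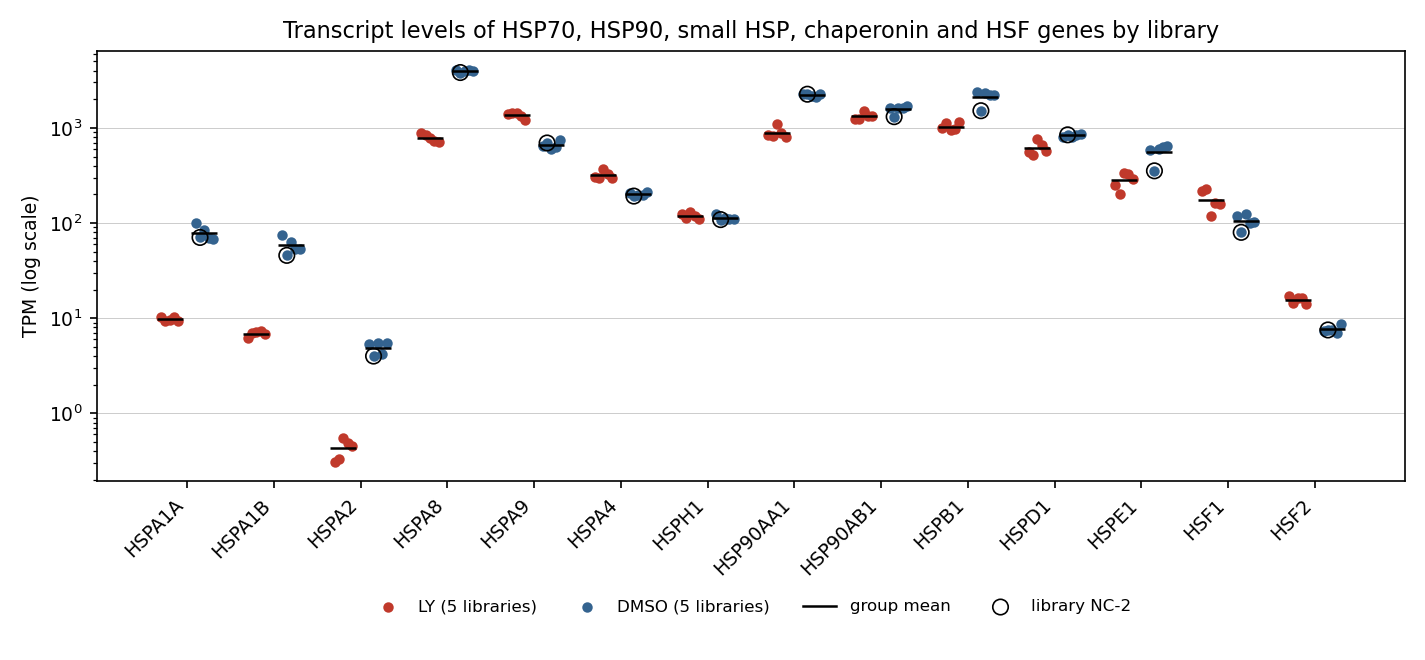
TPM of selected chaperone transcripts in each library on a log axis, with LY left of DMSO, points for libraries, lines for group means and circles marking NC-2. HSPA8 lies at 717 to 876 TPM in LY and 3816 to 4027 TPM in DMSO, whereas HSPA9 lies at 1212 to 1440.0 TPM in LY and 606 to 747 TPM in DMSO.

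The HSP90 isoforms of the cytosol separated. HSP90AA1, the stress-responsive isoform on chromosome 14 at 102080738 to 102139699, had 841, 814, 1099, 891 and 811 TPM in LY, against 2257, 2259, 2169, 2131 and 2250.3 TPM in DMSO. No library overlapped, although LY-3 was higher than the other LY libraries. It was 2.48-fold lower in LY (log2 fold change -1.32 ± 0.11, limma adjusted p = 9.03e-07). HSP90AB1, the constitutive isoform, had 1225, 1230.2, 1516, 1337 and 1345 TPM in LY, against 1616, 1311, 1605, 1619.8 and 1709 TPM in DMSO. NC-2 lay within the LY range and the other 4 DMSO libraries lay above it.

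HSP90AB1 did not pass as fitted (log2 fold change -0.24 ± 0.11, interval -0.49 to 0.01, limma adjusted p = 0.0815). It did pass as lower in LY without NC-2 (-0.30, adjusted p = 0.00715 by limma) and after median-ratio scaling (-0.39, adjusted p = 0.00102). The level of HSP90AA1 over that of HSP90AB1 was 0.686, 0.662, 0.725, 0.666 and 0.603 in LY, against 1.40, 1.72, 1.35, 1.32 and 1.32 in DMSO. The more abundant isoform was thus HSP90AB1 in every LY library and HSP90AA1 in every DMSO library.

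Of the 7 other genes of the HSP90 system, only CHORDC1 and TRAP1 passed. Among all 9 genes of the system 2 rose (background 39.8%) and 1 fell (background 24.9%). CHORDC1 encodes an HSP90 co-chaperone with zinc-binding CHORD domains that is itself heat-inducible. Its levels were 164, 161, 188, 195 and 139.8 TPM in LY, against 87.9, 90.9, 83.3, 73.2 and 83.8 TPM in DMSO. All LY libraries lay above all DMSO libraries, and the log2 fold change was 0.999 ± 0.11 (limma, adjusted p = 7.24e-06). TRAP1, the HSP90 of mitochondria, was higher by 0.32 ± 0.09 but lost its call after median-ratio scaling (0.17, adjusted p = 0.0783 by limma) and quantile normalization.

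The other 5 genes of the system serve HSP90 as adaptors or regulators. STIP1 (HOP), which bridges HSP70 and HSP90, averaged 617 ± 59.3 TPM in LY and 557 ± 24.8 TPM in DMSO. CDC37, which brings kinases, averaged 486 ± 43.1 TPM in LY and 398 ± 78.2 TPM in DMSO (log2 fold change 0.31 ± 0.15, interval -0.02 to 0.64, adjusted p = 0.0909 by limma). The immunophilin FKBP4 had a log2 fold change of 0.21 ± 0.14, the ATPase activator AHSA1 one of 0.09 ± 0.15, and the p23 gene PTGES3 one of -0.04 ± 0.16. None of these 5 passed. NC-2 was the lowest DMSO library for FKBP4, AHSA1 and CDC37, and leaving it out gave log2 fold changes of 0.07, -0.04 and 0.16, none of which passed.

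Of the 9 DNAJ genes, 5 were higher, 2 lower and 2 did not pass, near the rates over all tested genes (39.8% higher, 24.9% lower). DNAJA1 and DNAJA2 encode the main class A partners of cytosolic HSP70. DNAJA1 had 109, 93.4, 124, 114 and 102 TPM in LY, against 208, 180.5, 207, 210.1 and 228 TPM in DMSO (log2 fold change -0.93 ± 0.10, limma adjusted p = 7.75e-06). DNAJA2 rose, with 120.2 to 144 TPM in LY and 73.6 to 92.4 TPM in DMSO (log2 fold change 0.59 ± 0.09, limma adjusted p = 0.000143). Neither gene's groups overlapped. The level of DNAJA1 over that of DNAJA2 was 0.881, 0.777, 0.86, 0.867 and 0.838 in LY, against 2.52, 2.45, 2.40, 2.36 and 2.46 in DMSO, so the order of the pair was opposite in the groups.

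The class B genes split in the same manner. DNAJB1 (HSP40), the classical heat-inducible partner, had 97, 199, 218, 152 and 174 TPM in LY, against 262, 214, 257, 359 and 294 TPM in DMSO. LY-3 lay just above NC-2, and the log2 fold change was -0.75 ± 0.21 (limma, adjusted p = 0.00734). DNAJB6, a suppressor of polyglutamine aggregation, had 277, 282, 369.5, 343 and 289 TPM in LY, against 162, 109, 188, 134 and 142 TPM in DMSO (log2 fold change 1.09 ± 0.15, limma adjusted p = 4.12e-05). DNAJB2, another aggregation suppressor that also binds ubiquitin, had 25.9, 40.8, 37.5, 40.3 and 49.2 TPM in LY, against 19.4, 12.97, 21.0, 18.7 and 20.0 TPM in DMSO (log2 fold change 1.02 ± 0.17, limma adjusted p = 0.000237).

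Both DNAJB6 and DNAJB2 were higher in every LY library than in any DMSO library. The level of DNAJB1 over that of DNAJB6 was 0.35 to 0.706 in LY and 1.37 to 2.67 in DMSO. DNAJA4 was higher by 0.52 ± 0.12, and the mitochondrial DNAJA3 by 0.60 ± 0.18 with overlapping groups (limma, adjusted p = 0.0124; 0.0867 after quantile normalization). DNAJB4 (0.18 ± 0.13) and DNAJB5 (-0.16 ± 0.17) did not pass and stood at 2.68 to 5.36 TPM in LY and 2.49 to 5.22 TPM in DMSO.

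**Figure D2:**
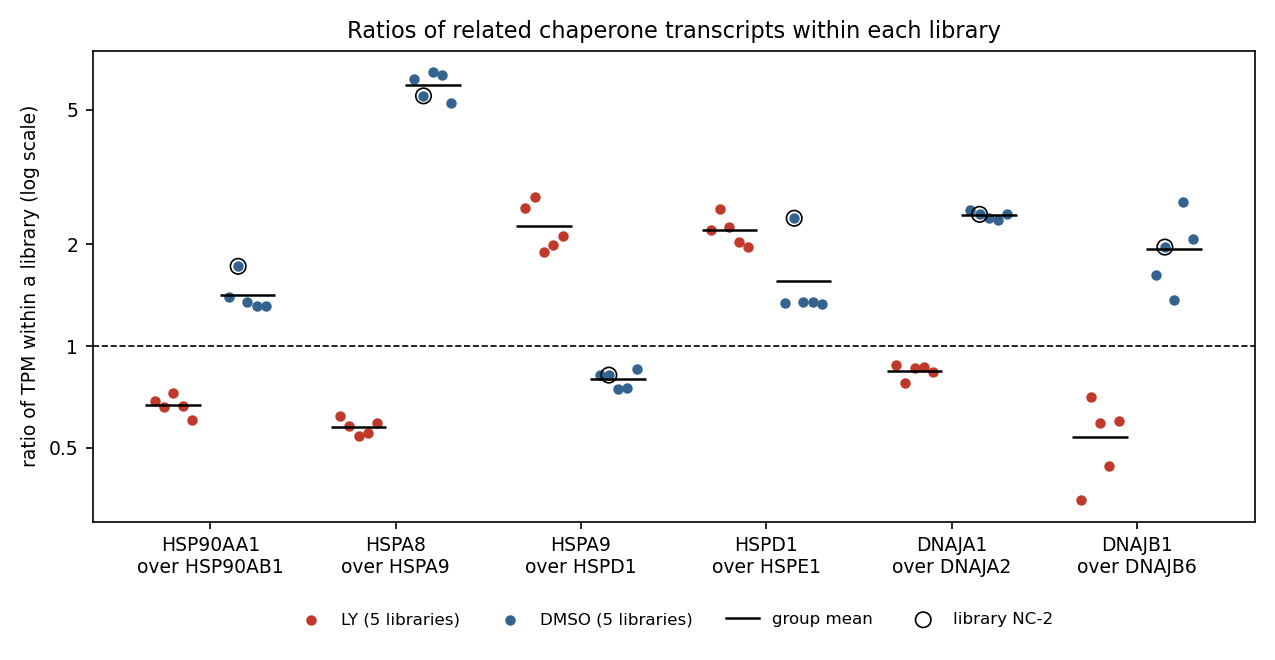
Ratios of the TPM of paired chaperones within each library on a log axis, LY left of DMSO, with points for libraries, lines for group means, a dashed line at 1 and circles marking NC-2. HSP90AA1 over HSP90AB1, HSPA8 over HSPA9, DNAJA1 over DNAJA2 and DNAJB1 over DNAJB6 lie below 1 in every LY library and above 1 in every DMSO library.

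Of the 6 BAG genes, 5 rose (background 39.8%) and none fell (background 24.9%). After median-ratio scaling, quantile normalization or removal of the mitochondrially encoded genes 4 were called higher. Over all tested genes these settings called 3977, 4055 and 3871 higher, in that order, against 4639 as fitted. Most BAG proteins release the nucleotide, and with it the client, from HSP70. BAG1, which links HSP70 to the proteasome, had 25.9, 24.3, 28.6, 33.9 and 26.1 TPM in LY, against 13.3, 10.5, 15.6, 15.3 and 14.7 TPM in DMSO (log2 fold change 0.95 ± 0.13, limma adjusted p = 4e-05). BAG2, an inhibitor of the STUB1 ligase, averaged 12.9 ± 0.833 TPM in LY and 6.73 ± 0.751 TPM in DMSO (log2 fold change 0.85 ± 0.10, limma adjusted p = 1.21e-05). Groups did not overlap for either gene.

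BAG3, the stress-inducible member that serves selective autophagy, had 113, 134, 97.6, 98.8 and 120.4 TPM in LY, against 91.2, 88.2, 87.1, 82.6 and 77.3 TPM in DMSO. The groups did not overlap, but the difference was small (log2 fold change 0.39 ± 0.11, limma adjusted p = 0.00613) and lost its call after median-ratio scaling (0.25, adjusted p = 0.109 by limma), quantile normalization (0.12) and removal of the mitochondrially encoded genes (0.24). BAG4 was higher by 0.57 ± 0.10 and BAG5 by 0.56 ± 0.12. BAG6, which guards newly made membrane proteins, did not pass, with 111, 124, 128, 128 and 146 TPM in LY against 119.7, 83.8, 129, 109 and 116 TPM in DMSO (log2 fold change 0.20 ± 0.12).

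Among the 8 CCT subunits 4 rose, near the background of 39.8%, none fell (background 24.9%) and 4 did not pass. Median-ratio scaling and quantile normalization each gave 3 higher and 1 lower. CCT2, the beta subunit, had 378, 369, 454, 441 and 391.6 TPM in LY, against 225, 177, 218, 236 and 249 TPM in DMSO (log2 fold change 0.88 ± 0.11, limma adjusted p = 2.73e-05). CCT8, the theta subunit, had 583, 537, 649.8, 625 and 509.7 TPM in LY, against 326, 313, 312, 327 and 373 TPM in DMSO (log2 fold change 0.81 ± 0.10, limma adjusted p = 2.19e-05). CCT6A, the zeta subunit, had 713, 734, 866, 784 and 704 TPM in LY, against 476, 479.7, 469, 487 and 515 TPM in DMSO (log2 fold change 0.64 ± 0.09, limma adjusted p = 7.19e-05). None of these 3 subunits overlapped between groups.

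CCT7, the eta subunit, overlapped and passed narrowly, with 728, 821, 1119, 943 and 1009 TPM in LY against 734, 407, 743, 729 and 792 TPM in DMSO (log2 fold change 0.46 ± 0.19, limma adjusted p = 0.0492). NC-2 was low, without it the value was 0.29 (adjusted p = 0.0495 by limma), and the call was lost under 12 of 20 alternative settings. TCP1, the alpha subunit, had 302, 329.8, 394, 387 and 378 TPM in LY, against 412, 303, 372, 389.7 and 426 TPM in DMSO. It did not pass as fitted (-0.08 ± 0.12, interval -0.35 to 0.18), but passed as lower in LY after median-ratio scaling (-0.23, adjusted p = 0.0264 by limma), quantile normalization (-0.34) and removal of mitochondrially encoded genes (-0.24).

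CCT3 (log2 fold change -0.03 ± 0.11), CCT4 (0.23 ± 0.14) and CCT5 (0.22 ± 0.15) did not pass. The ring holds each subunit in equal number, and the transcripts were unequal in both groups. The highest subunit over the lowest was 2.42 to 2.84 in LY and 3.16 to 3.41 in DMSO. The lowest subunit was TCP1 in every LY library and CCT2 in every DMSO library. The coefficient of variation over the 8 subunits was 29.6% to 35.9% in LY and 35.2% to 40.03% in DMSO, and these ranges overlap. The summed level of the subunits was 4251, 4816, 5604, 4929.8 and 5004 TPM in LY, against 3796, 3140.2, 3917, 4043 and 4210.2 TPM in DMSO, with LY-1 only slightly above NC-5.

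**Figure D3:**
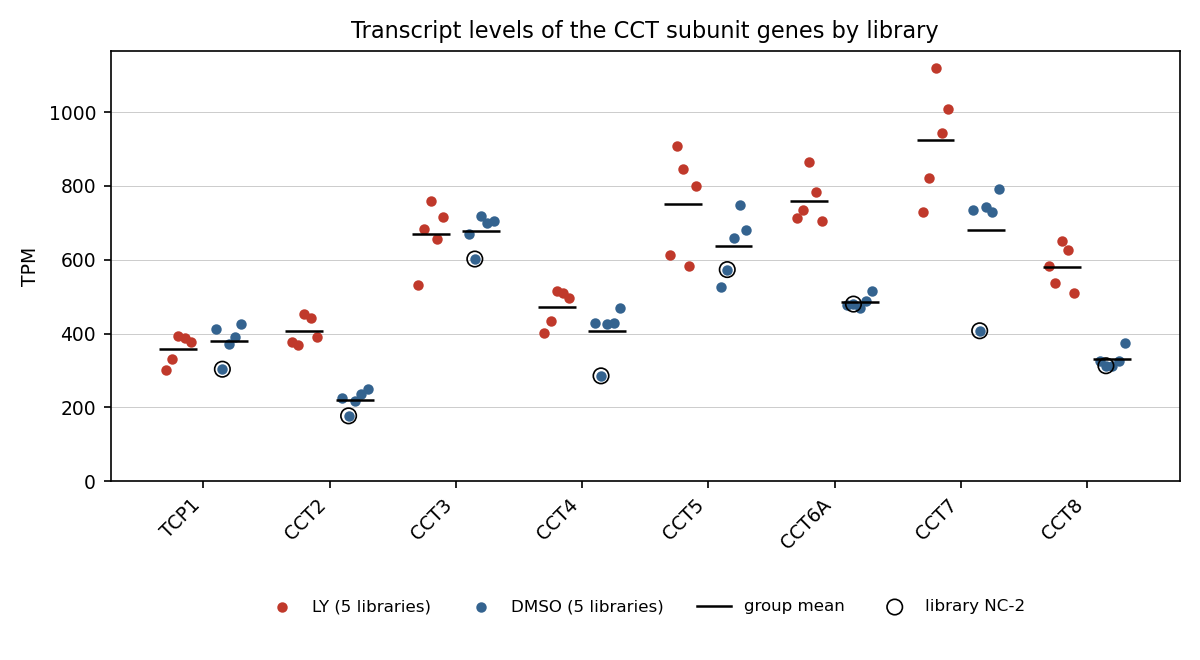
TPM of the 8 CCT subunits in each library, LY left of DMSO, with points for libraries, lines for group means and circles marking NC-2. CCT2, CCT6A and CCT8 lie higher in every LY library than in any DMSO library, whereas TCP1 spans 302 to 394 TPM in LY and 303 to 426 TPM in DMSO.

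Of the small heat shock proteins, which hold unfolding proteins without ATP, HSPB1 (HSP27) was the abundant one. It had 989.6, 1119.5, 939, 969 and 1140.4 TPM in LY, against 2361, 1515, 2354, 2213 and 2189 TPM in DMSO, with no overlap (log2 fold change -1.03 ± 0.14, limma adjusted p = 4.6e-05). HSPB8, the partner of BAG3, stayed below 1 TPM and was not tested, at 0.0644 to 0.477 TPM in LY, whereas 4 DMSO libraries were listed at 0 and NC-3 at 0.0492 TPM. CRYAB was listed at 0 in all libraries but LY-3, where it had 0.13 TPM.

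The mitochondrial chaperonin genes HSPD1 (HSP60) and HSPE1 (HSP10) are neighbours on chromosome 2 that overlap each other, so their counting may have been shared. HSPE1 also overlaps the gene HSPE1-MOB4 on its own strand, with which reads may have been shared too. HSPD1 had 552, 519.9, 756, 665 and 571 TPM in LY, against 793, 845, 809, 845 and 871 TPM in DMSO (log2 fold change -0.45 ± 0.12, limma adjusted p = 0.00438). HSPE1 had 250.1, 204, 336, 328 and 291 TPM in LY, against 592, 354, 598, 626 and 652 TPM in DMSO (log2 fold change -0.99 ± 0.19, limma adjusted p = 0.000603). Both fell with no overlap, while HSPA9, which passes imported proteins on to them, rose. The level of HSPA9 over that of HSPD1 was 1.90 to 2.76 in LY and 0.749 to 0.857 in DMSO. The level of HSPD1 over that of HSPE1 was 1.96 to 2.55 in LY, and in DMSO it was 2.39 in NC-2 and 1.34 to 1.35 in the other 4 libraries.

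Both heat shock factor genes among the members rose. HSF2 had 16.9, 14.4, 16.4, 16.4 and 14.2 TPM in LY, against 7.31, 7.52, 7.52, 7.04 and 8.73 TPM in DMSO, with no overlap (log2 fold change 0.95 ± 0.09, limma adjusted p = 3.67e-06). HSF1, the main activator, had 215, 229, 118, 161 and 159.9 TPM in LY, against 118, 79.8, 124, 99.3 and 102 TPM in DMSO. Its groups overlapped through LY-3, and the log2 fold change was 0.73 ± 0.18 (limma, adjusted p = 0.00388). HSF4, a further factor of the family outside the 51 genes, was lower, at 8.27 ± 2.22 TPM in LY and 13.4 ± 4.12 TPM in DMSO with overlapping groups (log2 fold change -0.61 ± 0.24, limma adjusted p = 0.038). HSF1 is regulated largely on the protein, which was not measured. STUB1 (CHIP), the ubiquitin ligase that tags HSP70 and HSP90 clients, had 51.7, 49.4, 53.5, 70.3 and 60.7 TPM in LY, against 101, 49.9, 101, 86.3 and 99.2 TPM in DMSO. Only NC-2 lay within the LY range. STUB1 was lower by the fit (-0.57 ± 0.19, limma adjusted p = 0.0187; -0.76 without NC-2).

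Counted together, 48 of the 51 members passed the filter on low values, and HSPA6, HSPB8 and CRYAB did not. Of the 48, 21 rose, 12 were called lower and 15 did not pass. The 12 include HSPA2, which the filter admitted through DMSO alone, as do the counts of lower members that follow. Over all tested genes 64.6% were called, 39.8% higher and 24.9% lower, so the 33 calls among the 48 lie near the general rate. After median-ratio scaling 18 members were called higher and 14 lower, and over all genes the calls then split into 3977 higher and 3757 lower, against 4639 higher and 2899 lower as fitted. Groups did not overlap for 28 members, 18 higher and 10 lower, against 49.4% of tested genes (32.7% higher and 16.7% lower). The median log2 fold change was 0.22 for the tested members, against 0.17 for all tested genes.

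On the log2(TPM + 1) scale, changes of at least 2-fold with a call were found for 3 members upward (HSPA9, DNAJB2 and DNAJB6) and 6 downward. The 6 were HSPA1A, HSPA1B, HSPA8, HSP90AA1, HSPB1 and HSPA2. Of these, HSPA2 had to differ because the filter admitted it through the DMSO libraries alone. The background rates are 12.4% upward and 9.76% downward. By the ratio of mean TPM, CHORDC1, BAG1 and HSF2 also reached 2-fold upward and HSPE1 downward. The downward members include the 3 most abundant transcripts of the set in DMSO. HSPA8, HSP90AA1 and HSPB1 summed to 2711 ± 87.5 TPM in LY and 8276 ± 402 TPM in DMSO. The other members summed to 12972 ± 894 TPM in LY and 11393 ± 987 TPM in DMSO. The 51 members held 1.46% to 1.72% of all TPM in LY and 1.73% to 2.06% in DMSO, where NC-2 was the lowest.

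**Figure D4:**
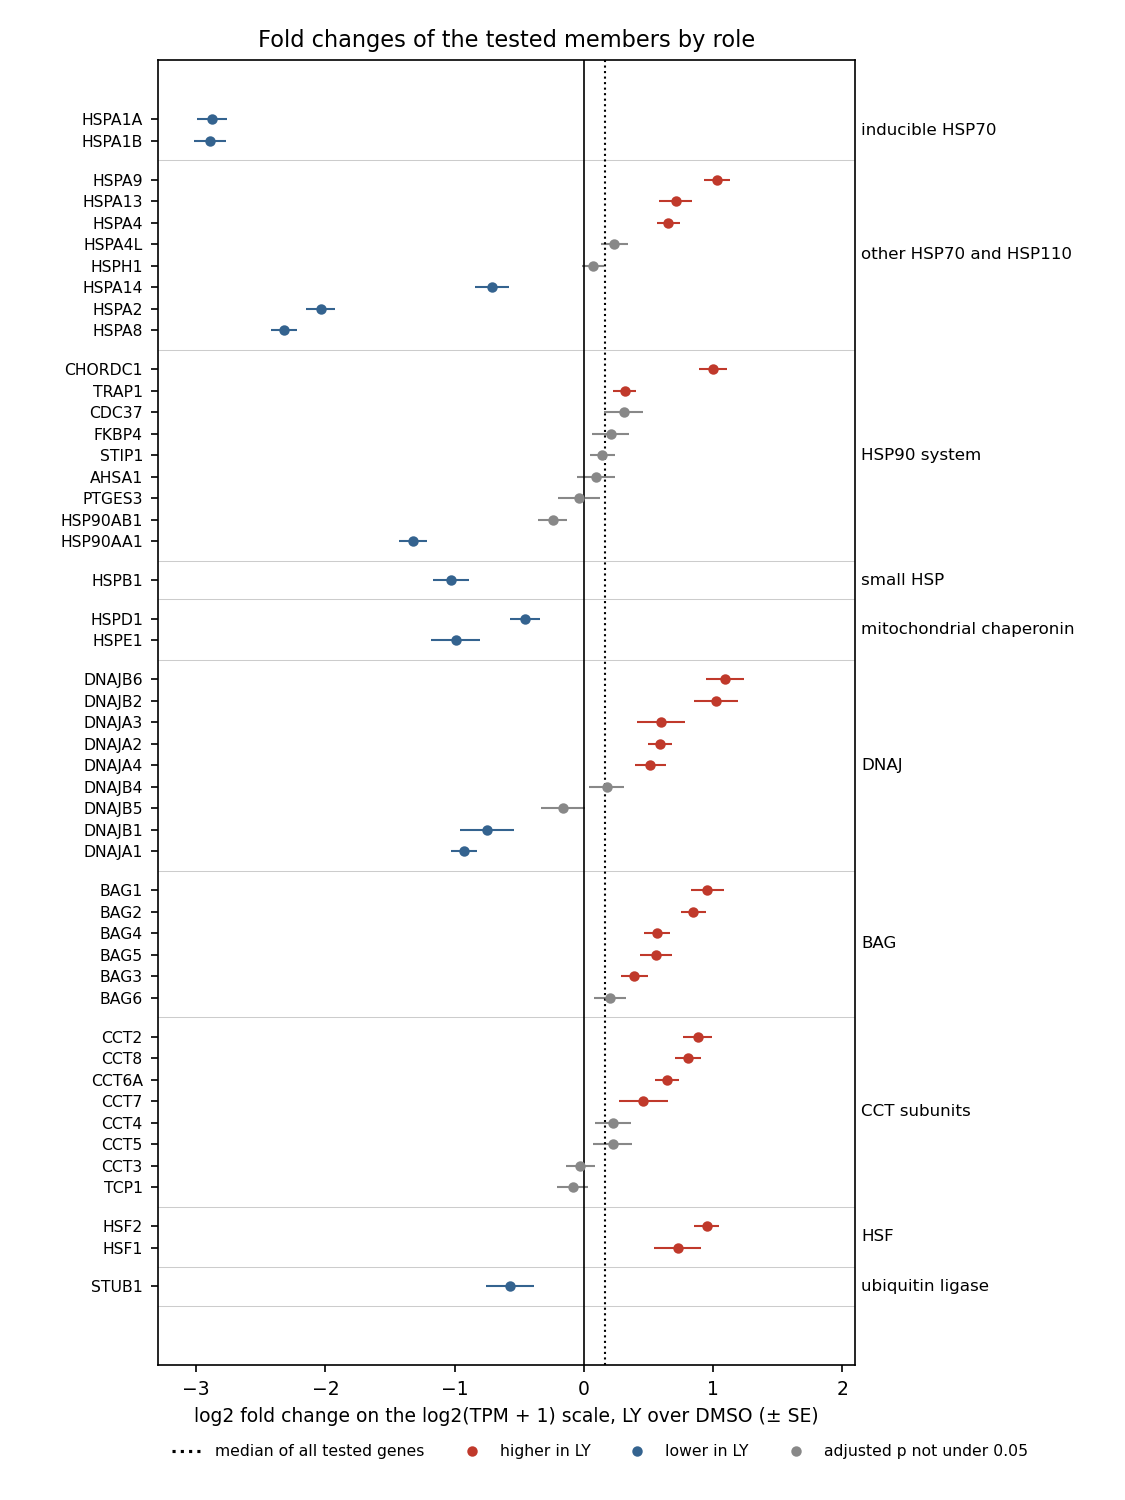
Log2 fold changes (LY over DMSO, log2(TPM + 1) scale) of the tested members by role, with bars for ± SE and a dotted line at 0.17, the median of all tested genes. HSPA1A, HSPA1B and HSPA8 lie below -2, whereas BAG genes and most CCT subunits lie at or right of the dotted line. HSPA2 is also drawn below -2, but the filter admitted it through the DMSO libraries alone, so it had to differ.

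The heat shock letters were also counted in every RefSeq window of 250 bases before to 50 after a start. A window was found for 44 members. The 3-unit form, searched as both of the forms given above and so on both strands, occurred in 8 of these 44 (18.2%), against 166 of 27305 genes (0.608%). The members were HSPA6, HSPA8, HSPD1, HSP90AA1, HSP90AB1, DNAJA1, DNAJB6 and CHORDC1. By the tests, 4 of the 10 members with a window that fell held it, as did 2 of 18 that rose and 1 of 14 that did not pass.

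The 2-unit form GAANNTTC, which reads the same on both strands and is contained in every 3-unit match, occurred in 17 of the 44 members (38.6%), against 8.21% of all genes. It was present for 8 of the 10 members that fell (80.0%), which include HSPA2 without a match, 5 of the 18 that rose (27.8%) and 2 of the 14 that did not pass (14.3%). The 8 count HSPA1A and HSPA1B separately, although their upstream bases are nearly alike. No share was taken among all genes that fell or rose, and the motif was chosen with earlier results known. The split by direction, here and for the 3-unit form, is a description and not a test. Each gene that rose with a 3-unit match, CHORDC1 and DNAJB6, has it within the shown stretch. Such letters are a textbook feature of heat shock gene promoters, and the members were chosen as heat shock genes. A match is a description of letters, not a bound site, and a window without one says nothing of the factor.

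The other genes of the chaperone network, in lists chosen with earlier results known, held 111 genes with a row. Of these 99 were tested, 49 rose, 14 were called lower and 36 did not pass. The 63 calls among 99 lie near the 64.6% over all tested genes, of which 39.8% were higher and 24.9% lower; the same shares are the background of each list named next. Among 16 further genes listed as induced by heat shock, 15 were tested, of which 7 rose, 2 fell and 6 did not pass. ZFAND2A (AIRAP), which adapts the proteasome to arsenite stress, averaged 63.7 ± 3.61 TPM in LY and 13.4 ± 2.41 TPM in DMSO (log2 fold change 2.18 ± 0.12, limma adjusted p = 4.51e-08). IER5L, a relative of the HSF1 target IER5, averaged 8.77 ± 1.4 TPM in LY and 59.9 ± 12.5 TPM in DMSO (log2 fold change -2.63 ± 0.16, limma adjusted p = 7.08e-08). Genes of this list thus moved in both directions.

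Of 23 further co-chaperones of HSP90 and HSP70, 11 rose (background 39.8%), 1 fell (background 24.9%) and 11 did not pass. The largest rise was that of TOMM34, which binds both chaperones, at 384 ± 33.1 TPM in LY and 127 ± 3.54 TPM in DMSO (log2 fold change 1.58 ± 0.09). SGTB averaged 21.9 ± 1.79 TPM in LY and 8.19 ± 0.809 TPM in DMSO (log2 fold change 1.32 ± 0.10). Of 13 prefoldin and CCT helper genes 5 rose, 2 fell and 6 did not pass. The prefoldin subunit PFDN2 averaged 566 ± 60.3 TPM in LY and 204 ± 39.99 TPM in DMSO (log2 fold change 1.49 ± 0.15). CCT6B, a CCT subunit known from testis, averaged 15.7 ± 2.69 TPM in LY and 3.97 ± 0.51 TPM in DMSO (log2 fold change 1.74 ± 0.13).

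Of 32 other DNAJ genes 28 were tested, of which 16 rose (background 39.8%), 4 were called lower (background 24.9%) and 8 did not pass. The 4 include DNAJC22, which averaged 0.62 TPM in LY and 3.91 TPM in DMSO, passed the filter through the DMSO libraries alone and is given without its test. DNAJC2, the partner of HSPA14 at the ribosome, rose by 1.34 ± 0.13, whereas HSPA14 itself fell by 0.71 on the log2 scale. Of 9 regulators of HSF1 and other HSF genes 8 were tested, with 6 higher and 2 lower. SIRT1, a deacetylase of HSF1, averaged 47.2 TPM in LY and 16.1 TPM in DMSO (log2 fold change 1.5 ± 0.12). HSBP1L1, a relative of an HSF1 inhibitor, averaged 84.9 TPM in LY and 32.3 TPM in DMSO (log2 fold change 1.38 ± 0.13). Of the 4 genes of the R2TP complex, which assembles protein machines with HSP90, 2 rose, 1 fell and 1 did not pass. Its adaptor RPAP3 had a log2 fold change of 0.90 ± 0.11 and its ATPase RUVBL1 one of 0.62 ± 0.15. Of 7 genes for nascent chains and disaggregation 2 rose, 1 fell and 4 did not pass. The risers were NAA10, which acetylates new chains (0.71 ± 0.19), and BTF3, a subunit of the nascent chain complex (0.57 ± 0.10). Of 8 further small heat shock protein and HSP70-like genes 2 were tested. The 1 called, HSPA12B, passed the filter through DMSO alone and is given without its test, at 0.266 TPM in LY and 1.32 TPM in DMSO.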

How the data were processed

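RNA sequencing values of 10 PANC-1 libraries (5 LY, 5 DMSO) were analysed as TPM, which the authors deposited in 1 table with 1 column per library. The columns sum to 999932 to 999967. The aligner is not given in the sources used here, nor is the counter or how reads in overlapping genes were treated. Read depth cannot be recovered from TPM, so no counting interval is given. LY columns were tied to samples by title and NC columns to the DMSO group.

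Genes at 1 TPM or more in at least 5 libraries were fitted on log2(TPM + 1) with limma 3.58.1 (trend) in R 4.3.3, with the group as the only term, and adjusted over all 11663 genes. On simulated data of the same 11663 genes the fit recovered 78% of genes changed 2-fold and 54% of genes changed 1.5-fold. It recovered 2% of genes changed 1.25-fold and made 8 false calls. The simulation planted 50 upward changes per size among unchanged genes, with independent normal noise and no outlying library. In the data 64.6% of genes were called, in both directions, so recovery there may differ. Every member is reported. From each list of other genes the 2 changed genes with the largest absolute log2 fold change were named. The members, lists and motif were chosen with earlier results of these data known. Alternatives were other pseudocounts, filters, scalings, moderation, an exact permutation test, and leaving out each library. Positions are hg38 from GENCODE release 29, and promoter windows are RefSeq's on GRCh38.p14. Many members overlap a neighbouring gene, for example HSP90AA1 and WDR20, HSPA14 and CDNF, HSF1 and DGAT1, STUB1 and JMJD8, BAG4 and LSM1, or TCP1 and ACAT2. Without strand information such values are uncertain. Strand information would not separate overlaps on the same strand, which are those of HSPA14 with MSANTD7, DNAJB4 with GIPC2 and HSPE1 with HSPE1-MOB4.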

Additional observations from a re-analysis of the deposited data

Results flagged for a closer look

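Of 124 groups of 5 values examined, 18 held a value far from the other 4 by Dixon's ratio, and chance flags about 1 in 20 groups. Of the 18, 14 were in NC-2.

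NC-2 was low for HSP90AB1 (1311 TPM, other DMSO libraries 1605 to 1709), FKBP4 (146 TPM, others 229 to 242) and AHSA1 (212 TPM, others 319.6 to 359.9). It was low for CDC37 (259.7 TPM, others 416 to 445), DNAJB2 (12.97 TPM, others 18.7 to 21.0) and CCT4 (285 TPM, others 425 to 469). It was also low for CCT7 (407 TPM, others 729 to 792), HSPB1 (1515 TPM, others 2189 to 2361), HSPE1 (354 TPM, others 592 to 652) and STUB1 (49.9 TPM, others 86.3 to 101). In NC-2 the HSP90AA1 to HSP90AB1 ratio was 1.72 and the HSPD1 to HSPE1 ratio 2.39, against at most 1.40 and 1.35 in the other DMSO libraries. The members' share of all TPM was 1.73% in NC-2, and its mitochondrially encoded share was 37.5%.

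Among LY libraries, HSP90AA1 was high in LY-3 (1099 TPM, others 811 to 891) and the HSPA1A to HSPA1B ratio was high in LY-1 (1.65, others 1.33 to 1.39). In NC-5, CCT8 was 373 TPM (others 312 to 327) and HSF2 was 8.73 TPM (others 7.04 to 7.52).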

How the results depend on the processing

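Of the 33 called members, 28 were called in the same direction under every alternative that could be run (20, or 19 for HSPA2). The matching share among all called genes was not taken, so this count cannot be read as particular to the members. The 28 include HSPA2, which the filter admitted through the DMSO libraries alone. Its agreement across alternatives is therefore no support for a change. TRAP1 and BAG3 lost the call after median-ratio scaling, quantile normalization and removal of mitochondrially encoded genes. DNAJA3 lost it after quantile normalization and in the exact permutation test (adjusted p = 0.0512), STUB1 in the exact permutation test (adjusted p = 0.0618), and CCT7 under 12 of 20 (range 0.21 to 0.54). HSP90AB1 gained a call as lower in LY under 5 alternatives, TCP1 under 4, HSPA4L as higher without LY-2 (0.28) or LY-5 (0.27) and DNAJB4 as higher after quantile normalization (0.32). The causes were not tested. Leaving out single libraries gave 20 to 21 members called higher and 12 to 13 lower. Over all tested genes these fits called 4400 to 4607 higher and 2633 to 3610 lower, against 4639 and 2899 as fitted.

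Signs turned for 8 members, none of which passed there. After median-ratio scaling, quantile normalization and removal of mitochondrially encoded genes, the log2 fold change was -0.074, -0.21 and -0.084 for HSPH1, -0.0040, -0.071 and -0.015 for STIP1, and -0.053, -0.16 and -0.064 for AHSA1. Quantile normalization gave -0.043 for FKBP4, -0.072 for BAG6 and -0.020 for CCT4. With NC-2 left out under median-ratio scaling, HSPH1 stood at -0.019, AHSA1 at -0.12 and FKBP4 at -0.0044. Over the fits without single libraries, AHSA1 ranged from -0.041 (without NC-2) to 0.15, PTGES3 from -0.15 to 0.037 (without LY-5) and CCT3 from -0.075 to 0.053 (without LY-1).

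No paired analysis was possible because the control columns carry numbers that no source ties to a labelled sample.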
